A study of Mus musculus with 12 samples.

Results

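Skin of mice with cutaneous lupus-like disease was compared with skin of disease-free littermates, with all diseased mice taken as 1 group. The comparison uses all 12 samples of the series: the 8 labelled CLE or Merkel het CLE against the 4 labelled littermate. It asks which immune genes differed in diseased skin, whichever of the 2 disease genotypes the mouse carried. The readout was a NanoString panel of mouse immune genes: each probe carries a barcode, and the hybridised barcodes are counted singly without amplification. The panel held 561 gene probes, of which 451 were tested. The values are the deposited signal, a barcode count multiplied by 1 factor per library, and are called units here.

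All mice were female and had been given OT2 T cells, whose transgenic T cell receptor sees ovalbumin. The cells had been driven towards the T helper 2 (Th2) state and expanded during 10 days of culture. The 4 CLE mice (cutaneous lupus erythematosus) were of the parental strain, rtTA+K5TGO+TLR9ko/ko, with Merkel cells and with skin disease scores of 2.5, 1, 1 and 3 for mice 1 to 4. The 4 Merkel het CLE mice were rtTA+K5TGO+ and Atoh1flox/wt K14Cre+. Mice 1 and 2 of that group were TLR9wt/wt and mice 3 and 4 TLR9ko/ko, with scores of 3, 2, 2 and 2.5. Atoh1 is a transcription factor required for Merkel cells, and K14Cre acts in the basal epidermis, so the labels give these mice a partial loss of Merkel cells. The 4 littermates lacked rtTA, K5TGO or both, and according to the labels could not express the autoantigen. They scored 0. Littermate 1 was TLR9ko/wt and the other 3 were TLR9ko/ko. Littermates 3 and 4 were also K14Cre+, with 1 or both copies of Atoh1 floxed, and carry labels of a partial (littermate 3) and a complete (littermate 4) Merkel cell loss. Skin was lesional in the diseased mice and from comparable body sites in the littermates, taken about 3 to 4 weeks after transfer. The series description states TLR9 deficiency for every group and Merkel cell loss, not partial loss, for the Merkel het CLE group. The sample labels differ on both points and were followed. TLR9ko/ko mice, and mice labelled K14Cre+, each made up the same share of the diseased and the littermate group. Within the diseased group the spread was uneven, since the TLR9wt/wt mice and the mice labelled K14Cre+ were all Merkel het CLE. TLR9wt/wt occurred only in diseased mice, and TLR9ko/wt and a label of complete Merkel cell loss only in littermates.

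In cutaneous lupus, immune cells and injured keratinocytes at the border of dermis and epidermis sustain each other through cytokines, chemokines and interferons. Neutrophils and monocytes enter inflamed skin along chemokine gradients and release alarmins such as the S100a8 and S100a9 complex. Keratinocytes answer interleukin-1 and interleukin-20-family cytokines with antimicrobial peptides and further chemokines. In bulk skin RNA, more or fewer cells of a type and more or less RNA per cell cannot be told apart.

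Recovered counts over all gene probes ran from 134994 to 682046 in diseased libraries and from 99297 to 422137 in littermate libraries. The difference in their means had an exact two-sided permutation p of 0.493, where 0.00202 is the smallest p that 8 against 4 allows. CLE 1 and littermate 2 had the fewest counts, and their values near background are the least precise. Their negative controls averaged 62.6 and 50.04 units after scaling, against 9.66 to 27.5 units in the other 10 libraries. The geometric mean of the 12 reference genes was 1050 to 1199 units in diseased libraries and 1054 to 1083 units in littermates (exact permutation p 0.0121). None of the 12 reference genes passed by exact permutation with Benjamini-Hochberg adjustment. The smallest adjusted p, 0.0727, was shared by Oaz1, Tubb5, Ppia and Sdha, with log2 differences of -0.65, 0.91, 0.69 and -1.10. The median log2 difference of all 451 tested genes was 0.19, and 61.6% of the differences were positive, a shift that centring the libraries removes. Itga6, an integrin chain of basal keratinocytes and the 1 fixed epithelial marker on the panel, was at 2913 to 6552 units in diseased skin and 3327 to 4308 units in littermate skin.

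By limma with Benjamini-Hochberg adjustment, 37 of the 451 genes differed between diseased and littermate skin at an adjusted p under 0.05, which is 8.20% of those tested. Of these, 23 rose (5.10%) and 14 fell (3.10%). Their adjusted p-values lay between 0.0401 and 0.0499, close to the threshold, and 138 genes had an unadjusted p under 0.05 (88 higher, 50 lower). The rises ran from 0.88 to 6.19 on the log2 scale with a median of 2.44. The falls ran from -0.71 to -3.73 with a median of -1.24. All log2 differences are diseased minus littermate means of log2(value + 1), a scale that understates the change of genes with low values. The 8 diseased and 4 littermate libraries did not overlap at all in 30 of the tested genes (6.65%), with diseased skin above in 16 (3.55%) and below in 14 (3.10%). Among the 37 genes that passed, 12 of the risers and 8 of the fallers were without overlap.

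**Figure D1:**
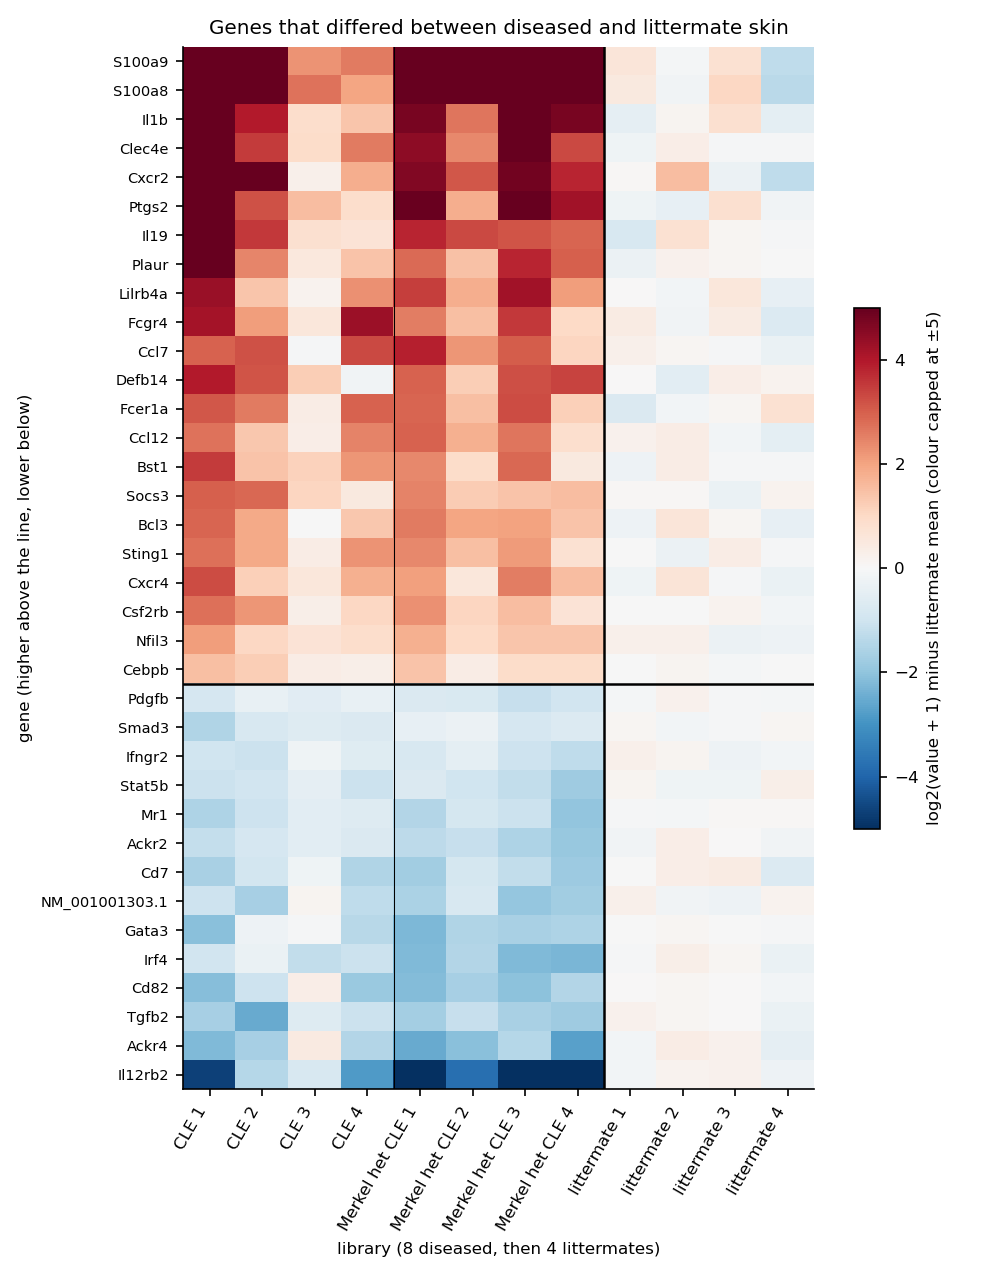
Colour map of 36 of the 37 genes that passed the threshold (rows) in each library (columns: 4 CLE, 4 Merkel het CLE, 4 littermates), as log2(value + 1) minus the littermate mean, with the colour capped at 5 log2 units either way. The 22 risers drawn lie above the line and the 14 fallers below it; CLE 3 is the palest of the diseased columns.

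The risers are described by role, with the counts of the lists they belong to; most members of most lists did not pass. The promoters of some risers are shown here because Cebpb, which encodes the transcription factor C/EBP-beta, was itself among the risers. RefSeq windows of the 250 bases before the annotated start (build GRCm38.p6) were at hand for 16 of the 23 risers, 11 of the 14 fallers and 336 of the 451 tested genes. They were searched on both strands for the C/EBP motif TTGCNNAA, chosen with the rise of Cebpb already known. It was present in the windows of 5 of the 16 risers (31.25%) and 1 of the 11 fallers (9.09%), against 9.23% of the windows of tested genes and 9.55% of all 27025 windows. The STAT motif TTCNNNGAA was in 2 of 16 risers, 1 of 11 fallers and 9.52% of tested genes, and the NF-kB motif in 2 of 16, 2 of 11 and 11.3%. No test was made of these shares, and a match describes the letters, not binding. The 5 riser windows with the C/EBP motif follow, written 5′ to 3′ towards the start of the gene, with the match in capitals. Clec4e and Plaur carry it on the opposite strand, and in Ptgs2 it reads the same on both.
S100a9, chr3:90695722-90695971, minus strand: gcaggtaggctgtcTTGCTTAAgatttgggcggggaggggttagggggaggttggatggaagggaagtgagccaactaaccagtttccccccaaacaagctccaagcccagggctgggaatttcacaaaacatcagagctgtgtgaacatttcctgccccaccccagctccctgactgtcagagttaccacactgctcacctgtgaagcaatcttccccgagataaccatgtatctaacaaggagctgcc
Clec4e, chr6:123289872-123290121, minus strand: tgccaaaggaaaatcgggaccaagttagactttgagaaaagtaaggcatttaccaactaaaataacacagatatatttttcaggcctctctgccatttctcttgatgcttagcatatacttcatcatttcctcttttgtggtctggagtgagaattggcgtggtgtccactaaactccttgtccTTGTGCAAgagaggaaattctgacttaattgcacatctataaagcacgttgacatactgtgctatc
Ptgs2, chr1:150099781-150100030, plus strand: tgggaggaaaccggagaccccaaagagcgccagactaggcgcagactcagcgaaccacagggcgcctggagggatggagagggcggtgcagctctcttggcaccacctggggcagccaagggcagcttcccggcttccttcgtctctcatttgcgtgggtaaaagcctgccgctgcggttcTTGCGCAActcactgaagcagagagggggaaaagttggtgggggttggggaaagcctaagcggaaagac
Plaur, chr7:24462233-24462482, plus strand: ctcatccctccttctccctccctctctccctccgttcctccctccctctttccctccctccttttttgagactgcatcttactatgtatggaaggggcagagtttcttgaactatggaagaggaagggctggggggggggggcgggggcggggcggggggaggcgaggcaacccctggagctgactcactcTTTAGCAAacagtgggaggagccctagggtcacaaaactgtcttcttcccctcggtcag
Fcer1a, chr1:173227230-173227479, minus strand: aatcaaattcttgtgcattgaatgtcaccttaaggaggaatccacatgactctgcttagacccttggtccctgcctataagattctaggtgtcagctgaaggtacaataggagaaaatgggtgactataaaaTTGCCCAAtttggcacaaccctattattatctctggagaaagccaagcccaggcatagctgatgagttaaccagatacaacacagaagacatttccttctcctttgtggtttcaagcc
The matches begin 236, 66, 69, 59 and 118 bases before the start in S100a9, Clec4e, Ptgs2, Plaur and Fcer1a. The faller with a match was Cd82.

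The largest rises were those of S100a9 and S100a8, which encode the subunits of calprotectin, a calcium-binding alarmin of neutrophils and inflamed keratinocytes. S100a9 lay between 331 and 93820.3 units in diseased skin, with a median of 4849, against 107, 64.7, 116 and 27.8 units in littermates 1 to 4. Every diseased library exceeded every littermate, with CLE 3 and CLE 4 lowest and CLE 1 highest. The log2 difference was 6.19 ± 1.30 (SE, n = 8 and 4; 95% interval 3.39 to 8.99), or 72.8-fold on that scale. S100a8 lay between 615 and 139994 units in diseased skin, with a median of 7937, against 219, 137, 317 and 60.5 units in littermates. Its groups did not overlap either, and its difference was 5.80 ± 1.21. Defb14, a beta-defensin of the epidermis that kills microbes, rose by 2.37 ± 0.66. Its diseased values ran from 181 to 3203 units and its littermate values from 142 to 258, and CLE 4 was the 1 diseased library inside the littermate range.

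Of the 9 panel genes on a list of neutrophil and alarmin genes, 6 were tested, and 3 of these rose: S100a8, S100a9 and Cxcr2. The list's median difference was 3.09, against 0.19 over all tested genes, and 2.61 with genes undetected in all littermates at their bounds. The other 3 (Csf3r, Cxcl3 and Cxcl1) did not pass. Csf3r, which binds the growth factor G-CSF, had a difference of 2.42 ± 0.73 (adjusted p 0.0586). The summed signal of the neutrophil markers S100a8, S100a9, Cxcr2 and Csf3r was 1207 to 236155 units in diseased libraries and 117 to 487 units in littermates. Most of it came from S100a8 and S100a9 (139994 and 93820.3 units in CLE 1). The sum thus largely restates their rise and is no separate measure of neutrophils. In CLE 3, Cxcr2 (19.6 units) and Csf3r (30.7 units) were below that library's background of 33.8 units. The part of neutrophil content in the other differences was not tested.

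**Figure D2:**
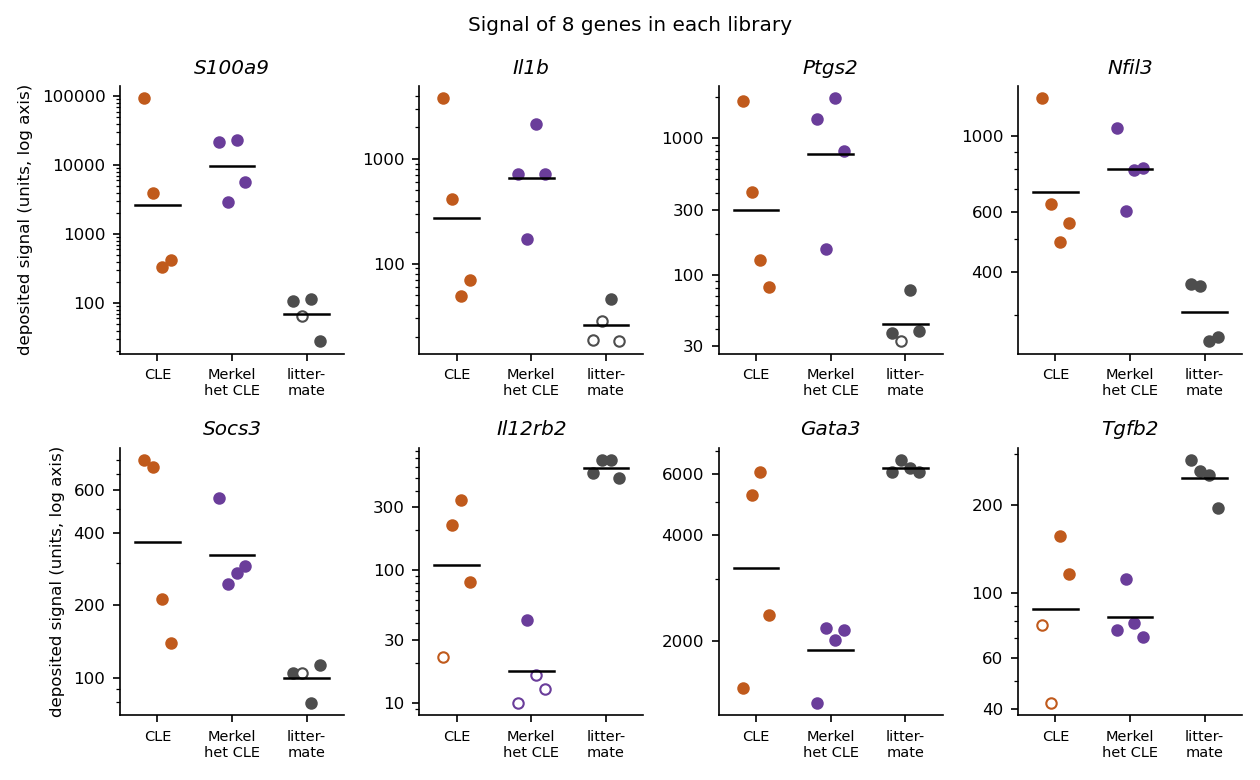
Deposited signal of 8 genes (log axis, units) in each library, with CLE, Merkel het CLE and littermates from left to right. Points are mice, open where the value is at or below that library's background, and bars are means on the log2 scale; S100a9, Il1b, Ptgs2, Nfil3 and Socs3 are above every littermate in all 8 diseased mice, and Il12rb2, Gata3 and Tgfb2 below.

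Among cytokines and mediators, Il1b, Il19 and Ptgs2 rose. Il1b encodes interleukin-1 beta, which is released after inflammasome activation. It lay between 48.9 and 3798 units in diseased skin, with a median of 563, against 18.8, 28.3, 45.6 and 18.2 units in littermates. The lowest diseased mouse, CLE 3, was just above the highest littermate, and the difference was 3.99 ± 1.02. Only 1 littermate was above background for Il1b, which limits how well the size of this rise is known. In a list of 13 IL-1 family and inflammasome genes, Il1b was the 1 that passed. The list median was 0.30 and turned to -0.11 when libraries were centred on their medians. Ptgs2, the inducible cyclooxygenase of prostaglandin synthesis, was at 81.2 to 1970 units in diseased skin, with a median of 607, against 37.5, 32.4, 77.0 and 38.7 units in littermates. The groups touched without overlapping, since CLE 4 at 81.2 units stood beside littermate 3 at 77.0, and the rise was 3.42 ± 0.85. Il19, an interleukin-20-family cytokine that acts on keratinocytes, ran from 26.7 to 1179 units in diseased skin, with a median of 160. Littermates had 8.89, 28.3, 17.2 and 15.7 units, none above background. Against the background thresholds of the littermates, Il19 was at least 4.25-fold higher in diseased skin; the bound allows for background and leaves out variation from mouse to mouse. The fitted difference was 3.03 ± 0.82. Of 15 tested genes of the IL-6, IL-10 and IL-20 families, Il19 and Socs3 rose, and the list median was 0.53.

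The chemokine ligands that passed were Ccl7 and Ccl12, which both attract monocytes through Ccr2. Ccl7 lay between 43.3 and 682 units in diseased skin, with a median of 360, against 54.3, 48.5, 43.5 and 35.1 units in littermates. CLE 3 lay inside the littermate range and the other 7 diseased mice above it, and the rise was 2.44 ± 0.62. Ccl12 rose by 1.89 ± 0.49, with 34.9 to 223 units in diseased skin and 19.4 to 36.4 units in littermates. Positive differences were found in 20 of 24 tested chemokine ligands, and 22 did not pass. Their median was 1.40 (1.00 after centring, 1.30 with undetected genes at their bounds). The interferon-gamma-induced chemokines Cxcl9 and Cxcl10 were among those 22, at 2.74 ± 1.06 and 2.64 ± 0.98. Cxcl10 was at 2569, 2439, 131 and 3833 units in CLE mice 1 to 4 and at 145, 302, 301 and 113 units in Merkel het CLE mice 1 to 4, against 53.3 to 119 units in littermates. CLE 1, 2 and 4 thus stood far above all other mice for this gene, and CLE 3 did not.

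Receptors for recruitment formed the next group. Cxcr2, the receptor for neutrophil-attracting chemokines, ran from 19.6 to 1540 units in diseased skin, with a median of 335. Littermates had 16.8, 48.5, 13.2 and 6.05 units, none above background. The diseased mice other than CLE 3 exceeded all littermates. Cxcr2 was at least 6.99-fold higher against the littermates' background, and the fitted difference was 3.75 ± 0.97. Cxcr4, which holds leukocytes at sources of Cxcl12, rose by 1.69 ± 0.47 with 6 of 8 diseased libraries above every littermate. Plaur, the urokinase receptor of migrating myeloid cells, rose by 2.68 ± 0.77, with 74.0 to 3192 units in diseased skin and 41.5 to 60.7 units in littermates. It was among the genes just inside the threshold, at an adjusted p of 0.0498. Of 13 chemokine receptors, Cxcr2 and Cxcr4 rose and Ackr4 fell, with a list median of 0.17 that turned to -0.24 after centring.

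Several receptors by which myeloid cells and mast cells sense their surroundings rose. Clec4e, or Mincle, a lectin that binds microbial glycolipids and products of dead cells, lay between 25.1 and 2530 units in diseased skin, with a median of 144. Littermates had 10.9, 16.2, 12.2 and 12.1 units, none above background, and all 8 diseased libraries exceeded them. Not all of those 8 were above their own background, so the lack of overlap includes undetected values on both sides. Clec4e was at least 5.83-fold higher against the littermates' background, and the fitted difference was 3.82 ± 0.95. Fcgr4, an activating receptor for IgG, rose by 2.46 ± 0.68, without overlap, at 41.9 to 559 units in diseased skin against 37.5, 24.3, 37.5 and 16.9 units in littermates. Fcer1a, the IgE-binding chain found on mast cells and basophils, rose by 2.25 ± 0.55, with 34.9 to 264 units in diseased skin and 15.8 to 46.0 units in littermates. Lilrb4a, an inhibitory receptor of myeloid cells, rose by 2.47 ± 0.67. Kit, the other mast cell gene tested, did not pass (0.54, adjusted p 0.387). The mast cell markers Kit and Fcer1a together summed to 51.7 to 298 units in diseased skin and 34.6 to 71.4 units in littermates. Of 10 Fc receptors and adaptors, 9 had positive differences and 2 rose, with a median of 1.48 (1.07 after centring). Of 15 monocyte and macrophage genes, 13 were positive and Lilrb4a alone passed, with a median of 0.90. Without CLE 3, 7 of these 15 and 9 of the 10 Fc receptor and adaptor genes passed. Leaving out a single littermate left no gene past the threshold. The macrophage markers Csf1r, Msr1 and Cd14 summed to 580 to 7646 units in diseased skin and 497 to 1032 units in littermates, and none of the 3 passed. Their part in the rises of the receptors was not tested.

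Regulators of the acute response were also among the risers. Socs3, which is induced by Stat3 and damps cytokine signalling, was at 139 to 801 units in diseased skin, with a median of 282, against 105, 105, 79.0 and 114 units in littermates. No diseased library reached down to the littermates, and the rise was 1.77 ± 0.44. Nfil3, a basic leucine zipper repressor of circadian and immune genes, was at 490 to 1290 units in diseased skin, with a median of 715. Littermates had 368, 364, 251 and 259 units, all above background, and the difference was 1.28 ± 0.27 (95% interval 0.70 to 1.85). Bcl3, a nuclear cofactor of NF-kB, and Sting1, the adaptor that responds to cyclic dinucleotides made from cytosolic DNA, rose by 1.77 ± 0.46 and 1.76 ± 0.42. Both had 7 of 8 diseased libraries above every littermate, and CLE 3 was the exception. The other 3 risers were outside the rule for naming genes and are given with their values known: Bst1, a cell-surface NAD-cleaving enzyme (1.87 ± 0.50), Csf2rb, the shared chain of the receptors for interleukin-3, interleukin-5 and GM-CSF (1.48 ± 0.41), and Cebpb (0.88 ± 0.25). Cebpb was at 3816 to 8880 units in diseased skin, with a median of 5850, against 3045, 3372, 2913 and 3086 units in littermates, without overlap.

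Detection bears on the sizes of these rises. Of the 23 risers, 6 were above background in all 4 littermates, 14 in some and 3 (Clec4e, Cxcr2 and Il19) in none. These 3 entered the fit through diseased libraries alone. Over all 37 genes, 16 were above background in all 12 libraries. After subtraction of each library's mean negative control, 56 genes passed, 42 higher and 14 lower.

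The largest fall was that of Il12rb2, the signalling chain of the interleukin-12 receptor, which T helper 1 cells and NK cells carry. It lay between 10.02 and 342 units in diseased skin, with a median of 32.2, against 545, 675, 685 and 495 units in littermates. No diseased library reached the littermate range, and 4 of the 8 were above background. The difference was -3.73 ± 0.86. Ifngr2, the second chain of the interferon-gamma receptor, fell by 0.82 ± 0.21, with 301 to 612 units in diseased skin and 604 to 858 units in littermates, where CLE 3 overlapped. Of 7 Th1-associated genes Il12rb2 was the 1 that passed. The median of that list was 0.10 while its mean was -0.47, and the median turned to -0.31 after centring. Against the same littermates its median was -0.46 in Merkel het CLE and 0.35 in CLE. Of these 7 genes, 1 was above background in all 12 libraries.

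Gata3, Irf4 and Stat5b, transcription factors that lymphocytes use, were among the fallers. Gata3, which specifies Th2 cells and also acts in hair follicles and epidermis, was at 1329 to 6059 units in diseased skin, with a median of 2159, against 6075, 6591, 6228 and 6061 units in littermates. CLE 3 at 6059 units lay just under the lowest littermate, so the absence of overlap rests on about 2 units. The difference was -1.34 ± 0.37. Irf4, needed by Th2, Th17 and plasma cells and by a dendritic cell subset, fell by 1.47 ± 0.38, with 43.9 to 175 units in diseased skin and 174 to 271 units in littermates. Stat5b, which carries interleukin-2 and growth hormone signals, fell by 1.03 ± 0.22, with 390 to 974 units in diseased skin and 1147 to 1623 units in littermates. Of 11 Th2-associated genes, Gata3 and Irf4 fell, none rose, and the median was -0.07. Of 7 Th17-associated genes Irf4 fell and the median was -0.85.

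The markers of T cells themselves were mixed. Cd7, a surface protein of T and NK cells, fell by 1.23 ± 0.34, with 39.3 to 120 units in diseased skin and 85.9 to 184 units in littermates. It was the 1 of 13 T cell genes that passed, and the median of that list was 0.04 (-0.36 after centring). That pooled median lies between opposite medians of the disease groups, -0.54 in Merkel het CLE and 0.67 in CLE. Of these 13 genes, 1 was above background in all 12 libraries. Scaled negative controls averaged 11.0 to 62.6 units in CLE libraries and 9.66 to 15.2 units in Merkel het CLE libraries. The part of background in this contrast was not tested. Cd3e and Cd247, chains of the T cell receptor complex, had differences of -1.23 and -0.98 without passing (adjusted p 0.0861 and 0.083), and Cd4 had a difference of 0.59. The summed signal of the T cell markers Cd3e, Cd3d, Cd247, Cd4 and Cd8a was 135 to 473 units in diseased skin, with a median of 273, and 306 to 493 units in littermates, with a median of 392. The transferred OT2 cells and the host's T cells cannot be told apart on this panel. The part of T cell content in the falls of Il12rb2, Gata3, Irf4 and Cd7 was not tested.

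The transforming growth factor beta axis gave 2 falls. Tgfb2, a ligand that restrains keratinocyte growth and drives the regression phase of hair follicles, lay between 42.0 and 156 units in diseased skin, with a median of 78.5, against 286, 263, 253 and 195 units in littermates. All 8 diseased mice were below all littermates, though 2 CLE libraries were under their background, and the difference was -1.52 ± 0.32 (95% interval -2.21 to -0.84). Smad3, a receptor-activated mediator of the pathway, fell by 0.74 ± 0.21, also without overlap, with 228 to 533 units in diseased skin and 598 to 704 units in littermates. It was the last gene inside the threshold, at an adjusted p of 0.0499. Of the 11 tested genes of that pathway, no other passed. The pathway's median was 0.05, its mean -0.20 and its median after centring -0.36. Tgfb1, the ligand made by many leukocytes, pointed the other way without passing, at 0.73. Pdgfb, a platelet-derived growth factor for pericytes and fibroblasts, fell by 0.71 ± 0.19 without overlap.

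Atypical chemokine receptors, which bind and clear chemokines without driving migration, also fell. Ackr2, a scavenger of inflammatory CC chemokines on lymphatic vessels and keratinocytes, was at 40.2 to 105 units in diseased skin, with a median of 67.1, against 136, 190, 153 and 137 units in littermates. The groups did not overlap, and the difference was -1.15 ± 0.28. Ackr4, which scavenges Ccl19 and Ccl21, fell by 1.70 ± 0.48. Its diseased values ran from 78.7 to 711 units and its littermate values from 384 to 663, because CLE 3 stood above every littermate and the other 7 diseased mice below. Cd82, a membrane tetraspanin, fell by 1.51 ± 0.39 with the same exception, at 554 to 3140 units in diseased skin and 2264 to 2677 units in littermates. Mr1, which presents vitamin B metabolites to mucosal-associated invariant T cells, fell by 1.14 ± 0.27 without overlap, at 108 to 295 units in diseased skin and 400.3 to 448 units in littermates. It was the 1 of 13 MHC class I genes that passed, and none of 13 MHC class II genes did. The transcript NM_001001303.1, which the reference table does not name, fell by 1.24 ± 0.34, with 13496 to 55741 units in diseased skin and 43436 to 60715 units in littermates.

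**Figure D3:**
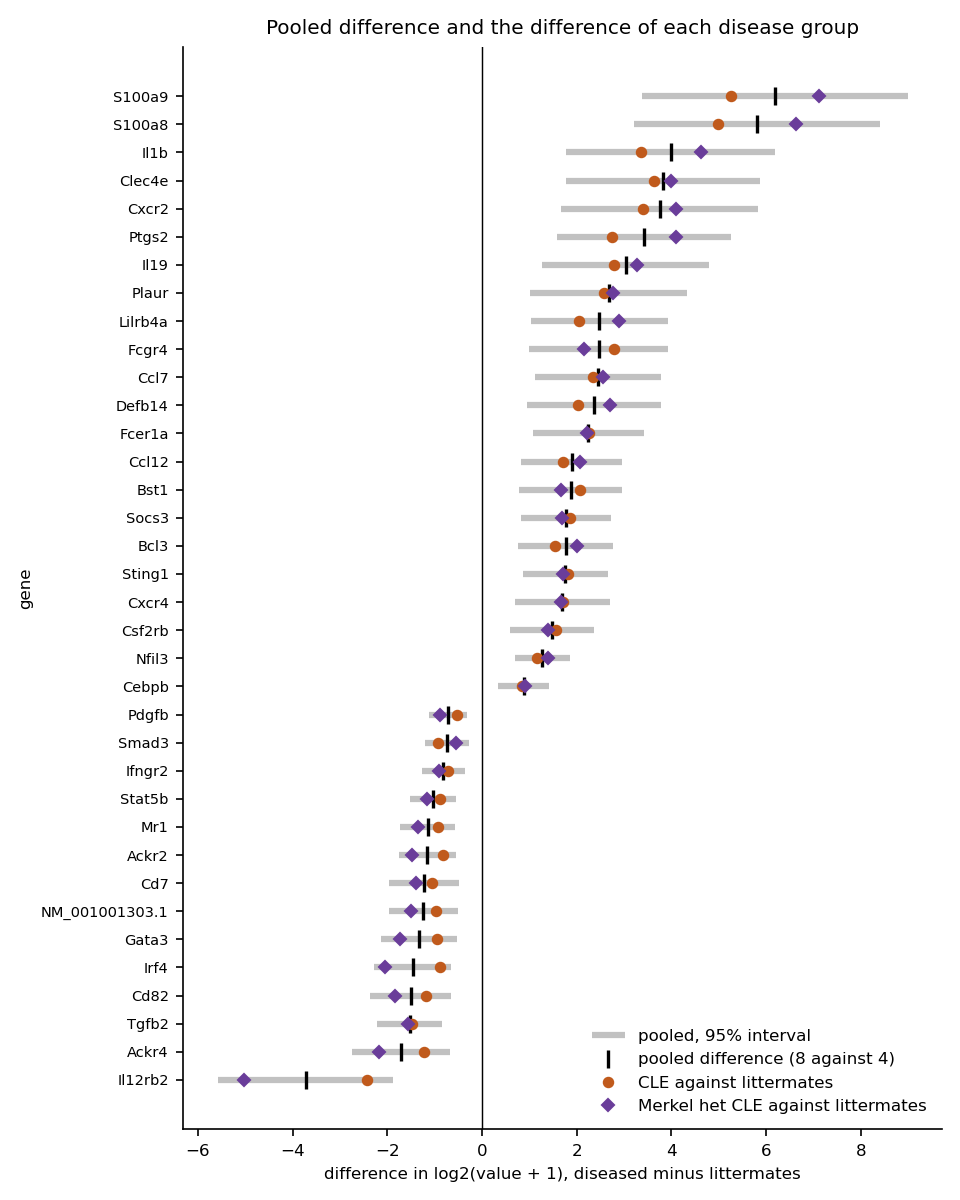
Pooled log2 difference (diseased minus littermates) of 36 of the 37 genes as a black tick with its 95% interval in grey, and the difference of the CLE mice (circles) and of the Merkel het CLE mice (diamonds) from the same 4 littermates. Both disease groups lie on the same side of 0 for each of the 36 genes; Il12rb2 has the widest gap among the fallers, at -5.02 for Merkel het CLE and -2.44 for CLE.

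No gene of the interferon-induced lists passed. All 10 tested type I interferon-induced genes had positive differences with a median of 0.88 (0.47 after centring), and 0 of 10 passed. The list's median was 0.39 in Merkel het CLE and 1.03 in CLE, each against littermates. Ifitm1, a membrane protein that blocks virus entry, had the smallest p of the list, at 2.53 ± 0.82 (adjusted p 0.0625). Irf7, the factor that amplifies interferon production, stood at 1.33 ± 0.55 (adjusted p 0.117), with 51.7 to 549 units in diseased skin and 66.6 to 97.8 units in littermates. Of 13 interferon-gamma-induced genes, 11 were positive and 0 passed, with a median of 0.42 (0.01 after centring). The list's median was 0.01 in Merkel het CLE and 1.03 in CLE, each against littermates. Its mean log2 value in CLE 3 was 7.29, inside the littermate range of 7.09 to 7.62. Of 12 nucleic acid sensing genes Sting1 alone rose, and the median of 0.25 turned to -0.15 after centring. Tlr9, the endosomal receptor for CpG DNA that most of these mice lack by label, had a difference of 0.22 ± 0.48 (adjusted p 0.804) and was above background in 7 diseased and 2 littermate libraries. The labels do not say whether its probe lies in the deleted part, so it checks no genotype.

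**Figure D4:**
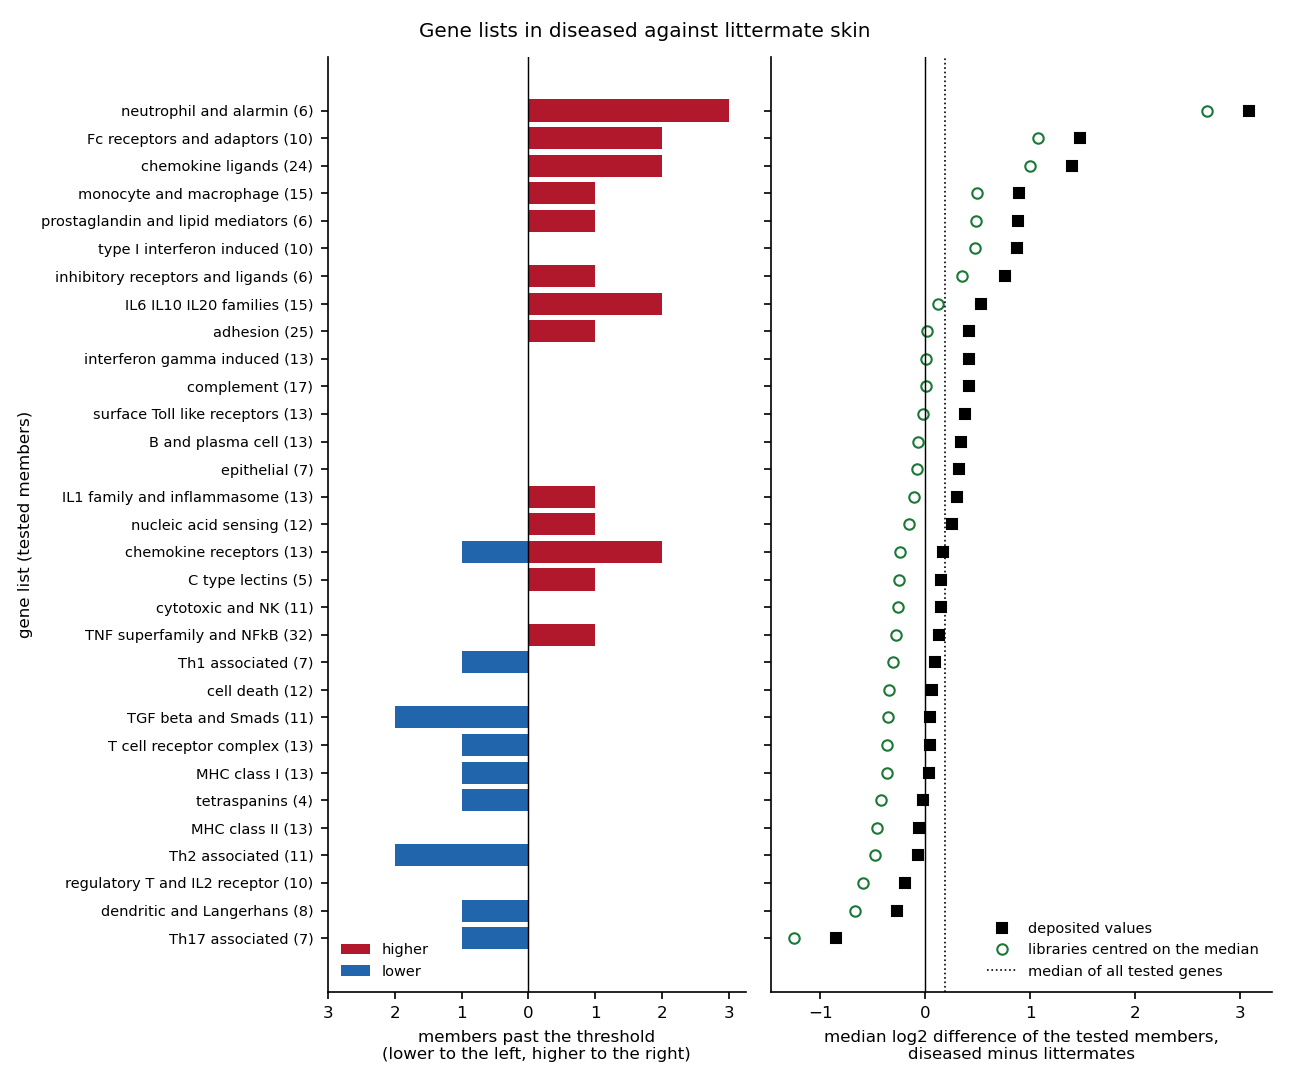
Gene lists with at least 4 tested members (number tested in parentheses). Left, members that passed the threshold, lower to the left of 0 and higher to the right; right, the median log2 difference of the tested members (diseased minus littermates) with deposited values (squares) and after centring each library on its median (open circles), with the median of all tested genes, 0.19, dotted. The neutrophil and alarmin list has the highest median, 3.09, and the Th17-associated list the lowest, -0.85.

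Lists for other cell types and pathways held few or no called genes. None of 11 cytotoxic and NK cell genes passed, nor any of 13 B and plasma cell genes, 17 complement genes, 12 cell death genes, 10 regulatory T cell and interleukin-2 receptor genes, 13 surface Toll-like receptor genes or 7 epithelial genes. Their medians lay between -0.19 and 0.41 with deposited values. That of the cytotoxic list, 0.15, lay between -0.51 in Merkel het CLE and 0.58 in CLE. Of those 11 genes, 1 was above background in all 12 libraries. These differences between the disease groups in list medians were not tested. Those of the cytotoxic, B cell, cell death, Toll-like receptor and epithelial lists turned negative after centring. The members with the smallest p included Entpd1, an enzyme that breaks down extracellular ATP, at 1.81 ± 0.58 (adjusted p 0.0625), and Ikzf2, a factor of regulatory T cells, at -1.43 ± 0.47 (adjusted p 0.0625). Cd14, the co-receptor for lipopolysaccharide, had a difference of 2.78 ± 0.93, and Cd55, which shields cells from complement, one of -1.09. Cradd, a death-domain adaptor, stood at -0.98. Of 32 genes of the TNF superfamily and NF-kB pathway Bcl3 alone rose, with a median of 0.13 that turned to -0.28 after centring. Among smaller lists, 1 gene passed in each of these: Clec4e of 5 C-type lectins, Ptgs2 of 6 prostaglandin and lipid mediator genes, Lilrb4a of 6 inhibitory receptors and ligands, and Nfil3 of 2 glucocorticoid-responsive genes, all higher, and Cd82 of 4 tetraspanins and Irf4 of 8 dendritic and Langerhans cell genes, both lower. Tnfaip6, a hyaluronan-binding protein of inflamed tissue, was just outside the threshold at 2.14 ± 0.63 (adjusted p 0.0532). Ncam1, the 1 Merkel cell marker on the panel, had a difference of 0.43 ± 0.31 (adjusted p 0.375). Merkel cells are hardly represented on the panel.

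The diseased mice varied widely in how far they departed from littermates. Over the 23 risers, the mean log2 value stood 4.68, 2.84, 0.75 and 1.78 above the littermate mean in CLE mice 1 to 4. In Merkel het CLE mice 1 to 4 it stood 3.57, 2.03, 3.65 and 2.40 above. Over the 14 fallers the means were -1.69, -1.06, -0.36 and -1.19 in CLE mice and -1.81, -1.28, -1.72 and -1.95 in Merkel het CLE mice. These genes were chosen by the same contrast, so the values describe the mice and test nothing. In CLE 3, 14 of 23 risers were above the highest littermate and 9 of 14 fallers below the lowest, whereas each of the other 7 diseased mice had at least 21 and 13. CLE 3 had a disease score of 1, as had CLE 2, whose counts were 23 and 13. On the first principal component of the tested genes, which held 53.6% of the variance, CLE 3 was at 12.3 and the other diseased mice at -24.5 to -0.86, against 12.4 to 17.4 in littermates.

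The 2 disease groups share the 4 littermates, so their own differences are given side by side. S100a9 stood at 7.11 in Merkel het CLE and 5.26 in CLE, and Il1b at 4.62 in Merkel het CLE and 3.35 in CLE. Gata3 stood at -1.73 in Merkel het CLE and -0.95 in CLE, each against littermates. The direct comparison of Merkel het CLE with CLE found 1 gene among 451 (0.222%), and it was not among the 37. That gene was Prf1, which encodes perforin, at 7.15, 13.7, 4.30 and 10.1 units in Merkel het CLE mice against 33.4, 32.1, 40.5 and 33.7 units in CLE mice (difference -1.97 ± 0.33, adjusted p 0.0261). It was above background in none of the Merkel het CLE libraries and 2 of the CLE libraries. Among the 37, the smallest adjusted p for that comparison was 0.0807, for Irf4, at -1.15 ± 0.30. Il12rb2 followed at -2.58 ± 0.71 (adjusted p 0.0931). For S100a9 the interval of the difference between the disease groups ran from -1.36 to 5.05, and for Nfil3 from -0.45 to 0.89. Each interval includes 0, so neither gene was shown to differ between the disease groups. True differences as large as the limits of each interval remain possible.

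The count of 37 rested on the whole set of mice. Leaving out any 1 littermate, or Merkel het CLE 1, 2 or 3, left 0 genes past the threshold by limma (106 to 134 at an unadjusted p under 0.05). Leaving out Merkel het CLE 4, CLE 1, CLE 2 or CLE 4 left 15, 3, 9 and 22. Leaving out CLE 3 gave 114 genes, 76 higher and 38 lower, which included all 37. With TLR9ko/ko libraries alone, with TLR9 genotype as a covariate, without the K14Cre+ littermates, or without both CLE 1 and littermate 2, 0 genes passed (79, 136, 67 and 109 unadjusted). The smallest adjusted p was 0.228, 0.0544, 0.327 and 0.0986 in these fits. All 37 differences kept their sign in each of them, but the fit with the TLR9 covariate could not have changed any. TLR9ko/ko mice had the same share in the diseased and littermate groups, so that fit returned the same differences. For the 20 genes without overlap, leaving libraries out could not have changed the sign. Centring the libraries gave 83 genes (36 higher, 47 lower) and quantile normalization 81 (33 higher, 48 lower), so the balance of rises and falls depends on the scaling.

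**Figure D5:**
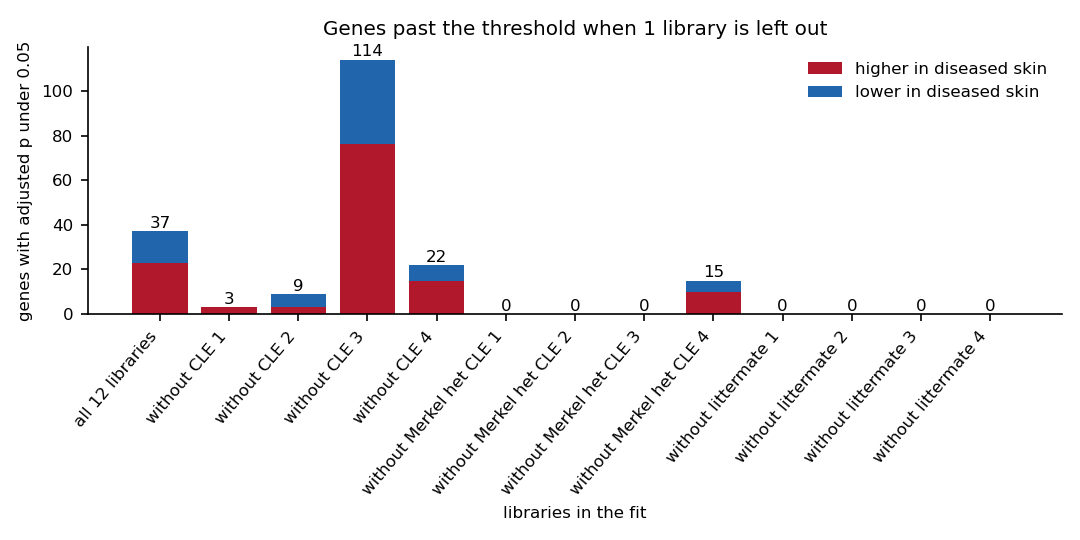
Number of genes with an adjusted p under 0.05 by limma with all 12 libraries and with each library left out in turn (horizontal axis), split into higher (lower part of the bar) and lower (upper part) in diseased skin. The count is 37 with all libraries, 114 without CLE 3 and 0 without any 1 of the littermates.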

How the data were processed

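The gene values are a signal deposited by the authors: per the steps between values, whole barcode counts multiplied by 1 factor per library. How that factor was set is not stated by the labels or the file, and the control probes were deposited as raw counts. RNA was extracted with a column kit, per the labels' protocols. Counts were recovered from the steps (100% of values lay within 0.02 units of a multiple; 3 values of Merkel het CLE 1 and 2 of Merkel het CLE 3 at the floor of 1 were taken as whole). Library factors ran from 0.715 to 5.56.

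Of 561 gene probes, 549 were paired with a symbol through the reference table and 12 were not. Of the 14 control probes, the 6 with the highest median count were taken as positive controls and the other 8 as negative controls. Genes entered the fit where at least 4 of 12 libraries had counts over background, the mean of the 8 negative controls plus 2 SD. This kept 451, left out 98, and the 12 reference genes stayed outside the fit. A gene detected only in littermates had to be above background in all 4 of them. For a gene detected only in diseased skin, 4 of the 8 libraries were enough, so the filter admits risers more easily than fallers. Groups follow the labels, and replicate numbers the order of accession. Each library is 1 mouse, and variation between mice is what the p-values rest on. The comparison used limma 3.58.1 (R 4.3.3) on log2(value + 1), 8 diseased against 4 littermate libraries, with a variance trend and Benjamini-Hochberg adjustment over 451 genes (threshold 0.05). A fit of 3 group means gave each disease group's difference. Single values were compared by exact permutation over 495 splits. Alternatives included edgeR 4.0.16 on the recovered counts. Genes were named by rule: the 15 largest rises and falls past the threshold, up to 4 members past it per described list (or the 2 with the smallest p), Tlr9, genes at the threshold, and genes that differed between the disease groups. A few of the genes so named are not reported here. The comparison, the gene lists, the motifs and the rule were chosen with earlier results of these data known. Code was tested on simulated data. Figures used Python 3.11.15 and matplotlib 3.10.9.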

Additional observations from a re-analysis of the deposited data

Results flagged for a closer look

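Dixon's test for a single value far from its group was run on 54 named genes in the diseased and the littermate group, 108 tests in all, and marked 9, where chance alone marks about 5%. In 3 cases the value was that of CLE 3. Ackr4 was at 710.94 units there against 78.7 to 193 units in the other 7 diseased mice, Cd82 at 3139.85 units against 554 to 1215, and Cd55 at 1628.59 units against 308 to 610.03. In each of these 3 genes CLE 3 lay on the littermate side of the other diseased mice.

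In CLE 1, the diseased library with the fewest counts, Smad3 was at 227.98 units (41 recovered counts) against 363 to 533 units in the other diseased mice, and Tlr9 at 155.69 units against 27.4 to 55.8. Littermate 2, the littermate library with the fewest counts, had Pdgfb at 873.39 units against 701 to 723 in the other littermates. Its Cd80 value of 60.65 units, against 28.4 to 31.5, lay below that library's background threshold of 116 units. Littermate 3 had Ctss, the antigen-processing protease cathepsin S, at 414.16 units against 206 to 214 in the other littermates, and Cradd at 113.41 units against 155 to 160.

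Merkel het CLE and CLE differed in Prf1, with a log2 difference of -1.97 (limma adjusted p 0.0261). Prf1 was above background in no Merkel het CLE library and in 2 CLE libraries, and it did not pass after background subtraction. Without CLE 3, 28 genes passed in that comparison, all lower in Merkel het CLE.

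Among the 98 genes left untested because too few libraries were above background, 4 were above it in 3 diseased libraries and in no littermate. They were picked by that pattern, diseased libraries outnumber littermates, and no test was made. Cd69, an early activation marker of lymphocytes, reached 122.33 units in diseased skin, where the highest littermate value was 28.3 units. Camp, the precursor of the antimicrobial peptide cathelicidin, reached 172.37 units against at most 40.4 in littermates. Il21r, the interleukin-21 receptor, reached 47.57 units against at most 17.8, and Ccr7, the lymph node homing receptor, 32.49 units against at most 32.4. Merkel het CLE 3 was among the 3 diseased libraries for each of the 4 genes.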

How the results depend on the processing

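The 37 genes kept their sign in each of the 33 alternative fits in which they were tested; 16 of them were tested in the fit of genes above background everywhere, and 34 in that of genes above it in 8 libraries. For the 20 without overlap between the groups, leaving libraries out could not change the sign. Some fits left every difference as it was, so the sign could not change in them. These were the fits with another filter or none, no variance trend, robust moderation, 3 group means or TLR9 genotype as a covariate. The count of 37 moved more than the signs did. It was 83 (36 higher, 47 lower) after centring, 81 (33, 48) after quantile normalization, 42 (22, 20) after rescaling on the reference genes, 176 (114, 62) with array weights, 56 (42, 14) after background subtraction, 72 (49, 23) by edgeR with TMM factors and 62 (47, 15) by edgeR with the deposited factors. It was 4 of 260 among genes above background in all libraries, 6 with a pseudocount of 16, 10 among libraries whose titles share the number 23, and 121 (74, 47) with disease scores of 2 or more. At adjusted p thresholds of 0.1 and 0.01 it was 104 and 0. It was 0 in TLR9ko/ko libraries, with TLR9 genotype as a covariate, without K14Cre+ littermates and without the 2 low-count libraries, by limma (79, 136, 67 and 109 unadjusted). Leaving out 1 library gave 0 to 114. No filter, a filter of 8 libraries, no variance trend, robust moderation, 3 group means and the title number as a random block (consensus correlation 0.19) gave 29 to 46.

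Merkel het CLE against CLE gave 1 gene. It gave 7 after rescaling on the reference genes, 8 with scores of 2 or more, 3 without the low-count libraries, and 0 after centring, quantile normalization or background subtraction, with no filter, with filters of 8 or all libraries, in TLR9ko/ko libraries and without K14Cre+ littermates (45 to 117 unadjusted by limma). Leaving out 1 library gave 0 to 28. No reference gene passed under the 4 alternatives run for them. No paired analysis was possible because the replicate numbers are in accession order and pair no samples. The number in the titles, which some diseased mice and littermates share and whose meaning the labels do not give, was used instead: 35 genes passed with it as a random block and 10 within number 23. Low counts in CLE 1 and littermate 2 limit genes near background; the causes of the changes in count were not tested.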
